A study of Mus musculus with 8 samples.

Results

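Liver miRNAs of mice treated with carbon tetrachloride (CCL4) for 6 weeks were compared with those of mice given olive oil alone for the same time. The comparison rests on 3 arrays, of which 2 hold CCL4 livers and 1 an olive oil liver. A mouse miRNA was included when the scanner software called it detected on at least 1 of these 3 arrays, which gave 139 of the 567 mouse miRNAs on the array. On at least 1 of all 8 arrays of the series, which also cover 4 and 8 weeks, 178 were detected. The mice were male C57BL/6J, 8 weeks old at the start. CCL4, a hepatotoxin that causes liver fibrosis on repeated dosing, was dissolved in olive oil and injected into the peritoneum, and the control mice received olive oil by the same route and schedule. Injections were given 2 times a week for the first 4 weeks and 1 time a week after that. Whole liver tissue was used, and whether each array holds 1 mouse or pooled mice is not given in the sources used here. Values of n are therefore numbers of arrays, and the spread between them may be technical. In whole tissue, fewer cells of a type and less RNA per cell cannot be told apart.

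A miRNA is a short RNA that guides the silencing machinery to messenger RNAs, mostly through base pairing of its seed near the 5′ end. miRNAs with the same seed form a family and can share targets, while miRNAs encoded close together are often cut from a common precursor transcript. In liver, miR-122 marks hepatocytes, miR-199 and miR-214 are linked to mesenchymal cells such as the stellate cells that deposit collagen, and the miR-29 family targets collagen messenger RNAs.

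The sequences of the miRNAs that passed the test in this comparison are given first, 5′ to 3′ with the seed (bases 2 to 8) in capitals. They are RefSeq entries (GRCm38.p6), apart from mmu-miR-199b*, which is from a table of sequences given with the study. An asterisk marks the arm of the hairpin that was named as the minor one when the array was designed. These 8 were called higher in the CCL4 livers, with miR-379 and miR-335-5p called only through the value that replaced their low olive oil signals, as described below:
mmu-miR-199b*: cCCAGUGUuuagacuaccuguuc
mmu-miR-34a: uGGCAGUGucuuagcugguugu
mmu-miR-214: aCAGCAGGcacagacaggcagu
mmu-miR-96: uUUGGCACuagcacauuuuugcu
mmu-miR-802: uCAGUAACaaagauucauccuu
mmu-miR-31*: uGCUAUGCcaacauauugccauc
mmu-miR-379: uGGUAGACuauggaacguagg
mmu-miR-335-5p: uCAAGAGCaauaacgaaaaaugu
Of the 4 that were lower after scaling between arrays, these are shown:
mmu-miR-29c: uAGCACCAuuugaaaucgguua
mmu-miR-146a: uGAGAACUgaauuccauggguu
The next set shows the 3 miRNAs of a single cluster on chromosome 17 (let-7e, miR-125a-5p and miR-99b), each followed by relatives with the same seed that are encoded elsewhere. After scaling these relatives were below the olive oil array, while without scaling their CCL4 arrays lay on either side of it:
mmu-let-7e: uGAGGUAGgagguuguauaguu
mmu-let-7a: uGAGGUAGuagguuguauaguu
mmu-miR-125a-5p: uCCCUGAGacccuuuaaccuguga
mmu-miR-125b-5p: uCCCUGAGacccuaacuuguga
mmu-miR-99b: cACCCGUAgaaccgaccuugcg
mmu-miR-99a: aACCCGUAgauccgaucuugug
mmu-miR-100: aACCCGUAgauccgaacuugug
The miR-15/16 family and the pair of miR-301a and miR-130a are shown because members with 1 seed were split between the sides after scaling:
mmu-miR-15b: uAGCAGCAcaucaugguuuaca
mmu-miR-195: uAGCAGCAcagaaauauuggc
mmu-miR-497: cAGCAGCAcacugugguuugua
mmu-miR-15a: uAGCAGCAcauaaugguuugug
mmu-miR-16: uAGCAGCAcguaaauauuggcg
mmu-miR-322: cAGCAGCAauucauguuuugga
mmu-miR-301a: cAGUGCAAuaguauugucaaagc
mmu-miR-130a: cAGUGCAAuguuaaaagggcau
The remaining members of the miR-199 and miR-29 groups are shown because each group lay on a single side after scaling, although without scaling the miR-29 members were on either side:
mmu-miR-199a-5p: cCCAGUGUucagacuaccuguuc
mmu-miR-199b: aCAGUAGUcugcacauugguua
mmu-miR-29a: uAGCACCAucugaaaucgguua
mmu-miR-29b: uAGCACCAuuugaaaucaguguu

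The 3 arrays differed in brightness, and the direction of most small differences depends on how this was handled. CCL4 replicate 1 had 121 miRNAs detected, CCL4 replicate 2 had 136 and the olive oil array had 117, and 113 were detected on all 3. Over these 113 the median signal, in arbitrary units of background-subtracted brightness, was 80.7 on CCL4 replicate 1, 115.8 on CCL4 replicate 2 and 65.9 on the olive oil array. The summed signal ran in another order, with 6.33e+04, 8.904e+04 and 7.503e+04. The scaling named in the study's methods uses the 75th percentile of the signals, taken here over the mouse miRNAs of each array, and this was 6.53, 7.55 and 4.71 in the same order. That percentile lay close to the lowest signal called detected (5.91, 5.59 and 6.26), so the scale of each array was set by dim miRNAs. Dividing by it lowered the CCL4 to olive oil difference of 134 of the 139 miRNAs by 0.58 on the log2 scale, a factor of 1.49. For the other 5, whose olive oil signal was under the floor of 0.01, the fitted difference shifted by -2.81. The median log2 difference over the 113 miRNAs was -0.45 scaled and 0.13 unscaled, and it was -0.04 when the arrays were instead centred on the median of their ratios (centred values below). Scaled values are given as the main result, with the unscaled value beside each.

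**Figure D1:**
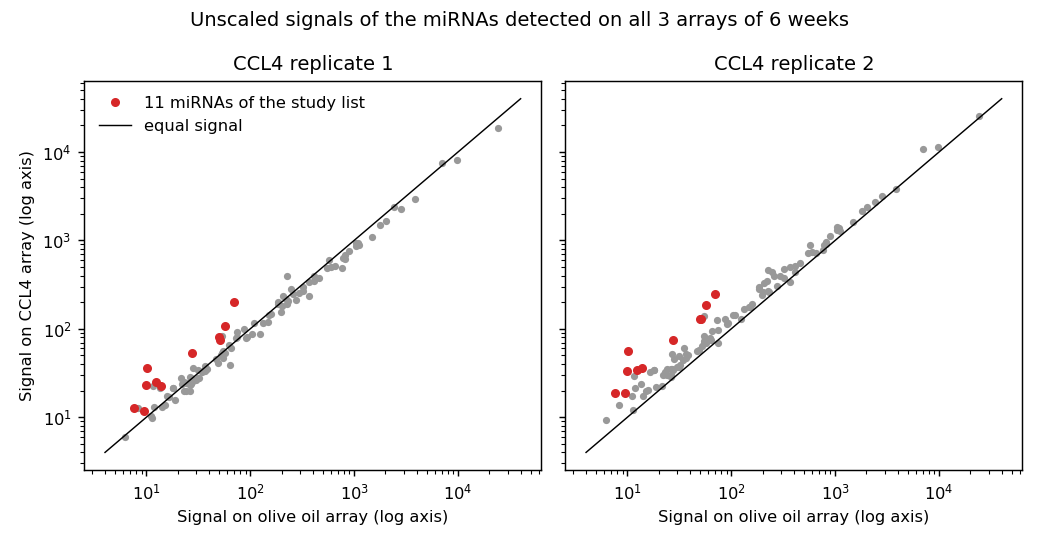
Unscaled signal of the 113 miRNAs detected on all 3 arrays of 6 weeks, with the olive oil array on the x axis and CCL4 replicate 1 (left) or CCL4 replicate 2 (right) on the y axis, both log axes in arbitrary units. Each point is a miRNA, the line marks equal signal and red marks the 11 miRNAs that the study listed. The red points lie above the line in both panels, and the rest of the points lie higher against the line on replicate 2 than on replicate 1.

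After scaling, 27 of the 139 miRNAs (19.4%) lay above the olive oil array on both CCL4 arrays, 96 (69.1%) lay below it on both, and 16 lay on either side. Without scaling, 59 (42.4%) were above on both and 2 (1.44%) were below on both, the latter being miR-22 and miR-101b. Scaling lowered the difference of each CCL4 array from olive oil. A miRNA above on both arrays after scaling was therefore bound to be above without it, as the 27 were. Likewise, a miRNA below without scaling was bound to be below after it. Lying on the same side with and without scaling is thus no separate evidence, here and in the groups below. Of the 96 below after scaling, 75 lay on either side without it and 19 lay above. At least 1.5-fold higher on the mean of the pair, with both CCL4 arrays on that side, were 17 (12.2%) after scaling and 28 (20.1%) without it, and at least 1.5-fold lower were 29 (20.9%) and 0 (0%).

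The CCL4 arrays correlated at r = 0.993 over the tested miRNAs, a value across miRNAs of 2 arrays and no measure of the comparison. Replicate 2 was above replicate 1 for 107 of the 113 miRNAs after scaling and for 111 without it, with a median gap of 0.32 and 0.53 on the log2 scale. The mean difference from olive oil was larger than the gap between the CCL4 arrays for 81 of the 113 after scaling and for 19 without it.

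In the fit across all features (limma, Benjamini-Hochberg adjusted p under 0.05), 8 of 133 miRNAs tested (6.02%) were called higher and 4 (3.01%) lower after scaling. At an unadjusted limma p under 0.05 the counts were 12 and 33. Without scaling, limma called 9 (6.77%) higher and 0 (0%) lower, with 19 and 0 at an unadjusted p under 0.05, and the 8 called higher after scaling were among the 9. With centred values limma called 16 (12%) higher and 1 (0.752%) lower. Normexp background correction called 0 and 0 (5 and 0 with limma p under 0.05 before adjustment), so no call described here held with it. Its offset of 50 lowers the folds of dim miRNAs by construction, and 3 miRNAs were at least 1.5-fold higher with it. The methods' t-test called 0 and 0 after Benjamini-Hochberg and 3 and 2 before it. With 2 arrays against 1 it has 1 degree of freedom, so hardly any miRNA could pass after adjustment. Nothing is read from its 0 adjusted calls. The test used miRNAs detected on at least 3 of the 8 arrays, so 6 of the 139 had no test. Because olive oil had 1 array at 6 weeks, its spread was assumed to be that of the CCL4 pairs of 6 and 8 weeks, and limma gave every miRNA the same standard error, 0.28 on the log2 scale after scaling and 0.42 without it. This spread was pooled over miRNAs as if they were independent, although replicate 2 was above replicate 1 for 107 of the 113 miRNAs after scaling. A small adjusted p is therefore no measure of replication between arrays. The counts moved with single arrays. They were 18 higher and 11 lower without CCL4 replicate 1, 11 and 73 without CCL4 replicate 2, and 3 and 0 when replicate 1 or replicate 2 of the CCL4 arrays of 8 weeks was left out, which enter through the spread alone. The 3 that then passed were miR-199b*, miR-379 and miR-335-5p.

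**Figure D2:**
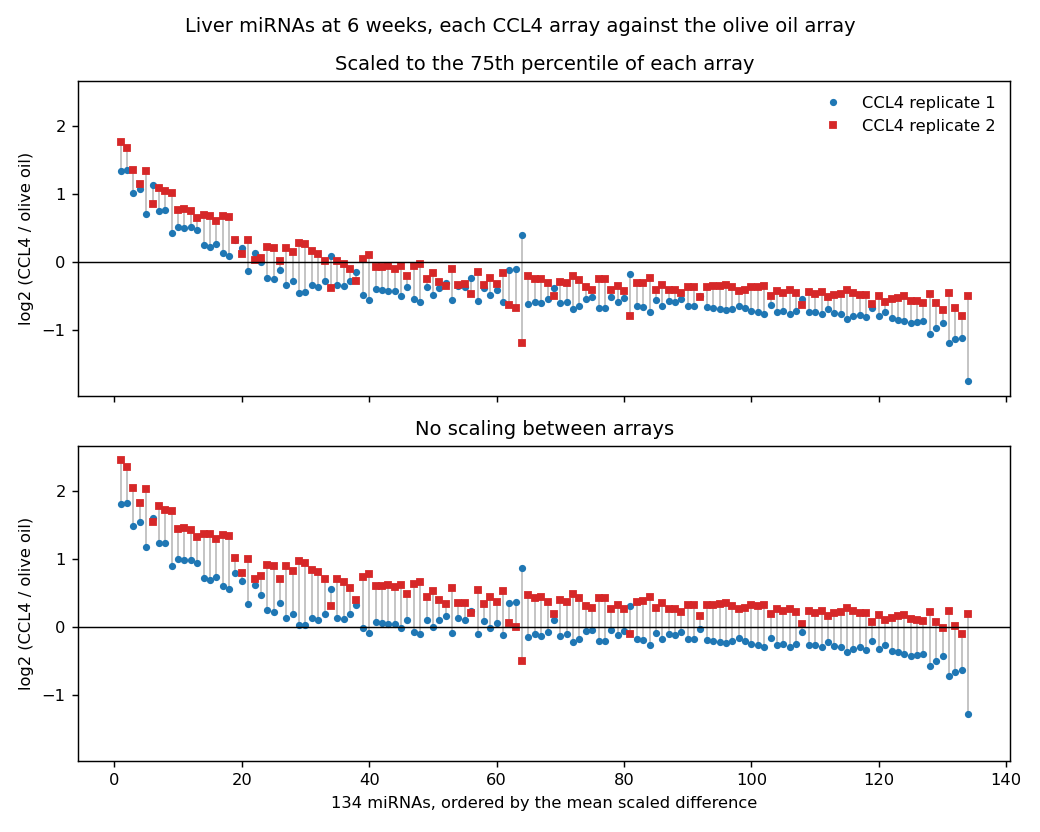
Difference of each CCL4 array from the olive oil array, as log2 (CCL4 / olive oil), for the 134 miRNAs with an olive oil signal of at least 0.01, scaled (top) and unscaled (bottom), ordered by the mean scaled difference. Circles are CCL4 replicate 1, squares are replicate 2 and the grey line joins the pair. The left end stays above 0 in both panels, whereas the long right part lies below 0 after scaling and straddles 0 without it.

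Among miRNAs detected on all 3 arrays, miR-199b* had the highest scaled difference. It is the 5p arm of miR-199b. Its unscaled signal was 35.8 and 55.6 on the CCL4 arrays and 10.2 on the olive oil array, so that both CCL4 arrays were well above it. It rose 2.93-fold after scaling (log2 1.55, SE 0.28, adjusted p = 5e-06) and 4.36-fold without it (adjusted p = 4.37e-05).

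miR-34a, a direct transcriptional target of the tumour suppressor p53, had signals of 202 and 246 in CCL4 livers and 69.7 in the olive oil liver. The CCL4 arrays were close to each other and clearly above the control. The rise was 2.15-fold scaled (adjusted p = 0.0035) and 3.20-fold unscaled (adjusted p = 0.0032). No other member of the miR-34 family was detected at 6 weeks.

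miR-802, which is enriched in liver, gave 23.2 and 33.8 in CCL4 livers against 9.91 in the olive oil liver. Both CCL4 arrays were above the control array. The rise was 1.89-fold scaled (adjusted p = 0.0199) and 2.82-fold unscaled (adjusted p = 0.0093), while with centred values it did not pass (adjusted p = 0.0567).

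For miR-214, miR-96 and miR-31* the olive oil signal was not called detected, so a nominal bound on the fold is given. It is taken against the lowest signal called detected on that array or the miRNA's own signal if higher. Undetected signals on that array can exceed its lowest detected signal of 6.26, as for miR-702 at 9.87. The bounds are therefore not strict lower limits. The adjusted p beside each bound is that of the limma difference from the undetected signal itself, so it does not test the bound. That difference was nominally 2.03-fold, 1.99-fold and 1.86-fold scaled, in the same order. miR-214 gave 12.6 and 22.8 in CCL4 livers and 5.61 in the control, with a nominal bound of 1.82-fold scaled (adjusted p = 0.0086) and 2.71-fold unscaled. miR-96, encoded next to miR-182 and miR-183, gave 15.5, 14.8 and 5.09, with a nominal bound of 1.62-fold scaled (adjusted p = 0.0104) and 2.41-fold unscaled. It did not pass with centred values (adjusted p = 0.0654). miR-31* gave 14.6, 20.4 and 6.20, with a nominal bound of 1.84-fold scaled (adjusted p = 0.0217) and 2.75-fold unscaled.

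miR-379 and miR-335-5p passed the test only by way of the floor. Their olive oil signals were -0.90 and 0.0025, at or under the value of 0.01 that replaces low values, so no fold is given. miR-379 gave 6.56 on CCL4 replicate 1 and 10.7 on CCL4 replicate 2, and miR-335-5p gave 2.25 and 5.59, and both were called detected on replicate 2 alone. With the floor at the lowest detected signal of each array neither passed (limma adjusted p = 0.625 and 0.0835) and the scaled log2 differences turned to -0.15 and -0.70.

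**Figure D3:**
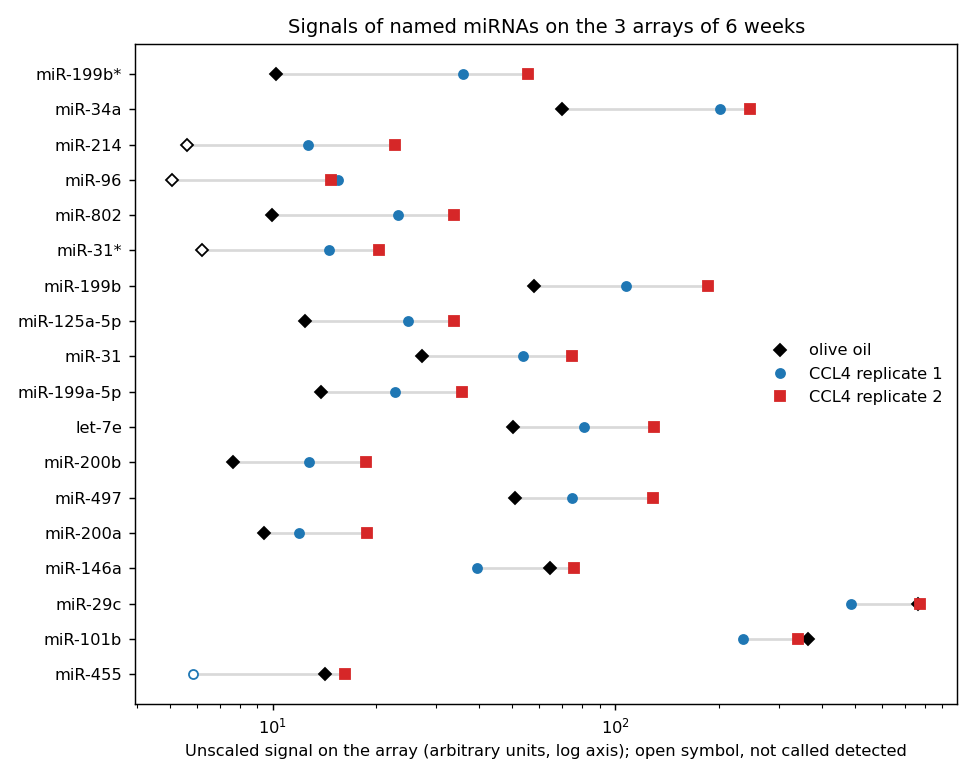
Unscaled signals (log axis, arbitrary units) on the olive oil array (diamonds), CCL4 replicate 1 (circles) and CCL4 replicate 2 (squares) for the 18 miRNAs that passed the test or are on the study's list and had an olive oil signal above the floor. Open symbols were not called detected. For the upper 14 miRNAs both CCL4 signals lie right of the olive oil signal, and for miR-146a, miR-29c and miR-455 the olive oil signal lies at or between the CCL4 signals.

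The miR-199 and miR-214 group held 4 detected members of 5 on the array, and all 4 were above olive oil on both CCL4 arrays with and without scaling. Of these, 2 were called higher after scaling and 3 without it. The third was miR-199b, which shares its probes and its mature sequence with miR-199a-3p. It gave 107 and 187 in CCL4 livers against 57.7 and was 1.64-fold higher scaled (adjusted p = 0.0847) and 2.45-fold unscaled (adjusted p = 0.037). miR-199a-5p gave 22.7, 35.6 and 13.8, a 1.38-fold scaled difference that did not pass (adjusted p = 0.19). With centred values all 4 members passed (limma adjusted p from 0.0025 to 0.0419). The median log2 difference of the group was 0.87 scaled and 1.45 unscaled, against -0.43 and 0.15 over all 139. miR-199a-5p and miR-199b* share the seed CCAGUGU and differ in the aligned sequence by U10C, counted from the 5′ end with the base of miR-199b* first, so probes of the pair could share signal, which was not tested. Of the other miRNAs linked to mesenchymal cells, miR-143 was detected with 21.5, 34.2 and 18.2, on either side of olive oil scaled and above it unscaled, and miR-145 was not detected.

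The deposited annotation gives 1 position per miRNA (build mm9), although some have further copies. In it miR-99b, let-7e and miR-125a-5p lie within 641 bases of chromosome 17 (17967164 to 17967804), and all 3 were above olive oil on both CCL4 arrays. let-7e gave 80.9, 129 and 50.2, a 1.36-fold scaled and 2.04-fold unscaled difference. miR-125a-5p gave 24.7, 33.8 and 12.4, which is 1.56-fold scaled and 2.32-fold unscaled. miR-99b gave 9.89 and 13.5 and was not detected in the olive oil liver, at 5.0. Its nominal bound, which is no strict lower limit, was 1.24-fold scaled and 1.84-fold unscaled. None of the 3 passed with or without scaling (scaled adjusted p from 0.12 to 0.199), while with centred values each did (adjusted p = 0.0398, 0.0096 and 0.0056).

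Their relatives with the same seed lay elsewhere in the order. Of the 9 miRNAs with the let-7 seed GAGGUAG, let-7e alone was above on both arrays after scaling, let-7i was on either side and 7 were below. let-7a gave 1492, 2146 and 1791, 0.67-fold scaled and 0.999-fold unscaled, and the scaled log2 differences of the family ran from -0.64 to 0.45. let-7a differs from let-7e by G9U alone, with the base of let-7e first. Without scaling let-7e and let-7i were above on both arrays and the other members were on either side. miR-125b-5p, with the seed of miR-125a-5p, gave 219.9, 343.1 and 222.6, which was 0.83-fold scaled and 1.23-fold unscaled. miR-99a gave 88.3, 143 and 103, and miR-100 gave 23.2, 35.0 and 26.1, each 0.73-fold scaled and 1.1-fold unscaled. These differences between relatives were not tested.

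The miR-15/16 family, which is known for targeting cell cycle and survival genes, was split in the same way. With the seed AGCAGCA, miR-15b, miR-195 and miR-497 were above olive oil on both CCL4 arrays, miR-322 was on either side, and miR-15a and miR-16 were below after scaling. miR-195 and miR-497, neighbours on chromosome 11 (70048234 to 70048584), gave 82.1, 138 and 54.0, and 74.8, 129 and 50.8. Their folds were 1.32 and 1.29 scaled, and 1.97 and 1.93 unscaled. miR-15b gave 394, 457 and 227, or 1.25-fold scaled on each CCL4 array. miR-15a and miR-16, neighbours on chromosome 14, gave 631, 891 and 775, and 394, 513 and 412, with scaled folds of 0.649 and 0.732 and unscaled folds of 0.967 and 1.09. No member of the family passed the test with or without scaling, and with centred values miR-195 and miR-497 passed (limma adjusted p = 0.0445 and 0.0487). For the seed AGUGCAA, miR-301a gave 22.4, 29.3 and 11.7 (1.47-fold scaled, 2.19-fold unscaled), which passed with centred values alone (adjusted p = 0.013), and miR-130a gave 606, 877 and 576 (0.848-fold scaled, 1.26-fold unscaled).

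The 11 miRNAs that the study listed as higher in CCL4 mice at every week were chosen on these same arrays, so their direction is no independent evidence. After scaling 10 of them were above olive oil on both CCL4 arrays of 6 weeks and 3 were called higher. Without scaling 11 were above and 4 were called, and with centred values 9 were called. The study's text writes miR-125-5p, which is read here as miR-125a-5p. With miR-125b-5p in its place each count would be lower by 1, apart from the calls with and without scaling. The exception was miR-200a, with 11.9, 18.9 and 9.42, which was 0.912-fold of olive oil on CCL4 replicate 1 and 1.25-fold on CCL4 replicate 2 after scaling. Its neighbour miR-200b, which like miR-200a restrains the loss of epithelial character, gave 12.8, 18.7 and 7.64 (1.35-fold scaled, 2.02-fold unscaled, scaled adjusted p = 0.204, centred adjusted p = 0.0171). miR-31 gave 53.6, 74.5 and 27.2 (1.56-fold scaled, adjusted p = 0.12, and 2.32-fold unscaled, adjusted p = 0.0529) and passed with centred values (adjusted p = 0.0056). The median log2 difference of the 11 was 0.64 scaled and 1.22 unscaled.

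The falls depended on the scaling throughout. The 4 miRNAs called lower after scaling were miR-455, miR-101b, miR-29c and miR-146a, and without scaling none passed (limma adjusted p = 0.997 for each). miR-101b gave 235 and 341 in CCL4 livers against 365, so it was below the control on both arrays with and without scaling, 0.519-fold scaled (adjusted p = 0.0166) and 0.775-fold unscaled. It was also the single miRNA called lower with centred values (adjusted p = 0.0399). miR-29c gave 487, 774 and 766, with the control level between the CCL4 arrays when unscaled, and was 0.538-fold scaled (adjusted p = 0.0217) and 0.802-fold unscaled. miR-146a, a negative regulator of NF-κB signalling, gave 39.3, 75.6 and 64.5, which is 0.567-fold scaled (adjusted p = 0.0474) and 0.846-fold unscaled. miR-455 gave 5.86 on CCL4 replicate 1, where it was not detected, 16.2 on CCL4 replicate 2 and 14.2 in the olive oil liver, or 0.46-fold scaled (adjusted p = 0.0035) and 0.687-fold unscaled. Single arrays decided these calls. None of the 4 passed when replicate 1 or replicate 2 of the CCL4 arrays of 8 weeks was left out of the spread, and without CCL4 replicate 1 of 6 weeks miR-146a and miR-455 did not pass (adjusted p = 0.13 and 0.11).

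The miR-29 group had 4 detected members of 6 on the array, all below olive oil on both CCL4 arrays after scaling and on either side of it without scaling. miR-29a gave 1102, 1596 and 1471 (0.604-fold scaled, 0.901-fold unscaled, scaled adjusted p = 0.0817) and miR-29b gave 616, 917 and 809 (0.623-fold scaled, 0.929-fold unscaled, scaled adjusted p = 0.103). miR-29c was the member that passed after scaling. The median log2 difference of the group was -0.70 scaled, -0.13 unscaled and -0.30 with centred values, where all 4 were below 0. The miR-26 and miR-101 group had 4 members below after scaling, with a median of -0.60 scaled, -0.03 unscaled and -0.20 centred, of which miR-101b passed. Medians near those of miR-29 were also found for miR-193 with miR-365 (-0.68 scaled, -0.11 unscaled and -0.275 centred). For miR-103 with miR-107 they were -0.65, -0.07 and -0.24. No member of these pairs was called.

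miRNAs that mark cell types of the liver were read as groups. Of the 5 hepatocyte miRNAs detected, miR-802 was called higher, and miR-122, miR-192, miR-194 and miR-148a were below olive oil after scaling and on either side of it without scaling. miR-122, the hepatocyte-specific miRNA, gave 18497, 25638 and 24201, which is 0.603-fold scaled (adjusted p = 0.0817) and 0.90-fold unscaled (adjusted p = 0.997). miR-192 gave 2265, 3218 and 2834 and miR-194 gave 508, 714 and 647, so the control level lay between the CCL4 arrays for each of these miRNAs before scaling.

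Of 8 leukocyte miRNAs on the array 5 were detected, 2 of them below olive oil on both arrays after scaling and 3 above it on both without scaling. miR-223 of myeloid cells gave 78.2, 127 and 72.9, and miR-142-3p, found across blood cells, gave 192, 285 and 185. Their scaled folds were 0.917 and 0.847 and their unscaled folds 1.37 and 1.26, and neither passed. miR-146a, described above, was the leukocyte miRNA called lower after scaling, and it was also under the control on average without scaling (0.846-fold). miR-142-5p and miR-342-3p were on either side after scaling, at 0.945-fold and 0.854-fold. The erythroid miR-451, miR-144 and miR-486 were below after scaling (median -0.37) and had an unscaled median of 0.20, with miR-451 at 2360, 2689 and 2398. The endothelial miR-126-3p gave 868.5, 1413 and 1037 (0.716-fold scaled, 1.07-fold unscaled) and miR-126-5p, from the same hairpin, gave 19.9, 30.9 and 22.9. miR-221, the other endothelial miRNA detected, gave 36.1, 45.9 and 28.2, on either side of olive oil scaled (0.968-fold) and above it on both arrays unscaled (1.44-fold). None of the 4 muscle, 4 neuronal and 4 pancreatic miRNAs looked up on the array was detected at 6 weeks.

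Other families of many members stayed near the median of all miRNAs. In the miR-17-92 and miR-106b-25 clusters, which are known for promoting proliferation, 8 of 9 detected members were below olive oil after scaling and 4 were above it without scaling, with medians of -0.42 and 0.16 on the log2 scale. Of the miR-30 group 7 of 7 were below after scaling and 1 was above without it (medians -0.51 and 0.07). The miR-23/24/27 group had 4 of 5 below after scaling (medians -0.36 and 0.22) and the group of miR-148 and miR-152 3 of 3 (medians -0.54 and 0.03). No member of these groups passed the test with or without scaling. miR-21, which is often raised in fibrotic tissue, gave 7411, 10773 and 7071, which was 0.847-fold scaled and 1.26-fold unscaled (adjusted p = 0.474 and 0.997). miR-22 gave 2903, 3842 and 3885 and lay below olive oil on both arrays with and without scaling (0.576-fold scaled, adjusted p = 0.056, and 0.86-fold unscaled). miR-720 gave 8076, 11421 and 9833, with the control between the CCL4 arrays before scaling and above them after it. miR-122, miR-720, miR-21, miR-22 and miR-192 were the miRNAs with the 5 strongest signals on the olive oil array, where signal also depends on the probe.

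Detection by itself ran toward the CCL4 arrays, mainly toward replicate 2. Of the 139 miRNAs 5 were detected on both CCL4 arrays and not in the olive oil liver, 15 on CCL4 replicate 2 alone, 2 on CCL4 replicate 1 alone and 0 in the olive oil liver alone. The 5 were miR-214, miR-96, miR-31*, miR-99b and miR-574-5p. The last gave 11.7 and 12.4 against 9.36 in the control and was 0.861-fold scaled and 1.29-fold unscaled, which left its direction to the scaling. miR-455, miR-219 and miR-29c* were detected in the olive oil liver and on CCL4 replicate 2 and not on CCL4 replicate 1. CCL4 replicate 2 was also the brightest of the 3 arrays, and the part of brightness in these counts was not tested.

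The imprinted Dlk1-Dio3 region on chromosome 12 encodes a large group of miRNAs on the maternal chromosome. Between 110831102 and 110978784 (mm9) 7 miRNAs were detected at 6 weeks, and 6 of them were above olive oil on both CCL4 arrays. These 7 members were collected by position after their values were seen. A separate list for the region held 17 miRNAs, of which 13 were not detected, and miR-136, miR-154* and miR-377 are not on it. The 6 entered through detection on CCL4 replicate 2 alone, so their place above olive oil follows in part from how they were chosen and nothing is read from the count. Of all 15 miRNAs that entered in this way 8 were above olive oil after scaling, 5 below and 2 on either side. miR-127 gave 6.13, 8.85 and 1.73 and miR-136 gave 6.49, 9.54 and 2.33. miR-154*, miR-376b and miR-377 gave 8.11 and 13.2, 4.41 and 8.98, and 3.67 and 6.76 in CCL4 livers, with olive oil signals below 0. miR-494, detected on all 3 arrays, gave 92.6, 70.0 and 75.1, which was below olive oil scaled (0.719-fold) and on either side of it unscaled. Only miR-379 and miR-494 of the 7 entered the test.

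miRNAs encoded close together were then compared. Joining positions at most 10000 bases apart gave 28 groups with 67 of the 138 miRNAs that had a position. Several groups, such as miR-31 with miR-31*, hold only the arms of a single hairpin and are counted again with the hairpins. After scaling, 6 of these groups had every member above olive oil, of which 2 held only miRNAs that entered through detection on CCL4 replicate 2, while 15 had every member below and 7 were mixed. For comparison, over all 139 miRNAs 19.4% were above and 69.1% below. The 4 groups with every member above that did not rest on that detection were the chromosome 17 cluster, miR-497 with miR-195, miR-199a-5p with miR-199b and miR-214 on chromosome 1 (164147979 to 164153590), and miR-31 with miR-31* on chromosome 4. The annotation places miR-199b on chromosome 1 but its other arm, miR-199b*, on chromosome 2. The chromosome 1 position may thus be that of miR-199a-3p, which has the same mature sequence. Both arms of a hairpin were detected for 12 hairpins, and 10 of them had both arms on the same side, 2 above and 8 below. The scaled log2 difference of the arms differed by 0.13 in the median, from 0.01 to 0.83, and the largest gap was that of miR-199b and miR-199b*, where the first shares its probes with miR-199a-3p.

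The same contrast at 4 and 8 weeks used other arrays, though a common estimate of the spread. Of the 8 miRNAs called higher at 6 weeks, 7 had a scaled log2 difference above 0 at 4 weeks and 8 at 8 weeks. The exception at 4 weeks was miR-379, with CCL4 and olive oil both at the floor. The 4 called lower at 6 weeks were below 0 at 4 and at 8 weeks after scaling. Scaling lowered their differences at those weeks too. Without scaling, both CCL4 arrays of 8 weeks were above olive oil for miR-29c (1263 and 1037 against 986). The same held for miR-101b (495 and 445 against 436), while miR-146a and miR-455 were on either side. At 4 weeks miR-29c, miR-101b and miR-455 were below olive oil without scaling, and miR-146a was level with it (58.98 against 58.53). miR-199b* had scaled log2 differences of 1.46, 1.55 and 1.37 at 4, 6 and 8 weeks, and miR-34a had 1.07, 1.103 and 1.21. miR-802 had 0.12, 0.92 and 0.85, and its difference between 6 and 4 weeks was not past the threshold. Its unscaled signal at 4 weeks was 25.6 on the CCL4 array against 12.7 on the olive oil array, so its small 4-week value depends on the scaling.

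**Figure D4:**
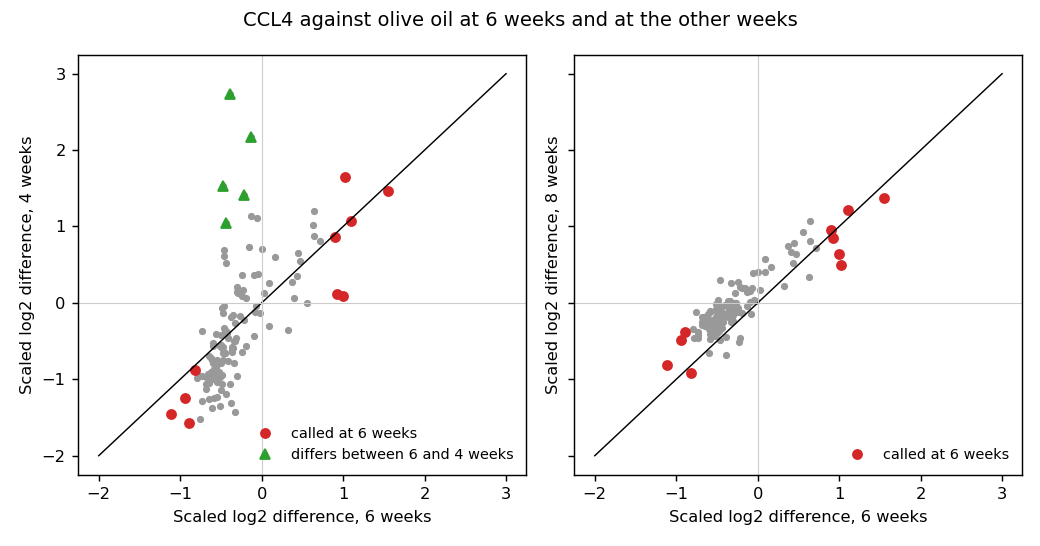
Scaled log2 (CCL4 / olive oil) at 6 weeks (x axis) against that at 4 weeks (left) and at 8 weeks (right) for the 131 tested miRNAs with an olive oil signal at 6 weeks above the floor. Red marks miRNAs called at 6 weeks, green triangles mark those whose effect differed between 6 and 4 weeks, and the line marks equal differences. The points spread more widely around the line at 4 weeks, and the 5 triangles lie above 1 at 4 weeks and below 0 at 6 weeks.

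By its own contrast in limma, the effect at 6 weeks differed from that at 4 weeks for 7 of 133 miRNAs (5.26%) and from that at 8 weeks for 2 (1.5%). The 2 were miR-379 and miR-335-5p, which also belong to the 7 and rest on the floor. For the other 5 the effect was lower at 6 weeks, and each of them was high on the single CCL4 array of 4 weeks. miR-1224 gave 1896 on that array. Its CCL4 signals were 235 and 334 at 6 weeks and 445 and 385 at 8 weeks, and its olive oil signals were 226, 205 and 248 from the earliest to the latest week. The CCL4 signals at 6 weeks lay above their control without scaling and on either side of it after scaling, and the effect differed from 4 weeks by -2.30 on the scaled log2 scale (adjusted p = 7.83e-06). miR-494 gave 323 on the CCL4 array of 4 weeks and at most 92.6 on the other 7 arrays. miR-801, miR-574-5p and miR-689 had the same order, with 28.6, 43.2 and 126 on the CCL4 array of 4 weeks against CCL4 signals of 13.5 and 5.26, 11.7 and 12.4, and 28.2 and 29.99 at 6 weeks. With 1 array per treatment at 4 weeks, that array, the week and the dosing, which became less frequent after 4 weeks, cannot be told apart. The CCL4 array of 4 weeks was also the array with the most miRNAs detected, 158.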

How the data were processed

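Liver RNA was hybridized to single-colour Agilent mouse miRNA arrays. The intensity values were made by the authors, per the file headers, in Feature Extraction 10.5.1.1. It removes local background and adds up the spots of a miRNA to a total gene signal, and the deposited values carry no scaling between arrays. The deposited processed table holds log2 values of the same signals (4536 values compared) and was used as an alternative. The arrays share 1 slide and 1 scan, no spot was saturated (0), and the number of arrays limits the precision.

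For the scaled values, the 75th percentile over 567 mouse miRNAs was found for each array and its signals were divided by it. Values under 0.01 became 0.01 before log2. Setting that floor first, as the study's methods have it, was an alternative. miRNAs detected on at least 3 of 8 arrays were tested with limma 3.58.1 under R 4.3.3. The model had a mean per group over 6 groups and 2 residual degrees of freedom per miRNA, on all 8 arrays. limma pooled the spread over the tested miRNAs, so its p-values rest on more degrees of freedom than these 2. Adjusted p is by Benjamini-Hochberg over the 133 tested miRNAs, with a threshold of 0.05. Seeds are bases 2 to 8, and of 48 names looked up 47 were in the RefSeq table.

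miRNAs were named when they were on the study's list of 11, passed the test with both CCL4 arrays on the same side (up to 8 each way), were detected on both CCL4 arrays and not in olive oil, had the 5 strongest olive oil signals, belonged to a family or cell type list, or differed between weeks. miR-136, miR-154* and miR-377 and miRNAs named for their position were chosen after their values were seen. The members and lists were chosen with earlier results of these data known. Alternatives covered scaling, floor, background correction (normexp, offset 50), detection filters, the arrays in the fit, variance model, the methods' t-test, replicate block, 2-fold threshold, arithmetic means and leaving out each array of a pair. The limma script was tested on simulated data.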

Additional observations from a re-analysis of the deposited data

Results flagged for a closer look

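The effect of CCL4 at 6 weeks differed from that of another week for 7 miRNAs, by a limma contrast of the scaled log2 differences with an adjusted p under 0.05. The difference of the 6-week effect from the 4-week effect was -2.30 for miR-1224, -2.01 for miR-494, -1.62 for miR-574-5p, -1.48 for miR-689 and -3.13 for miR-801. For these 5 miRNAs the single CCL4 array of 4 weeks held the highest signal of the 8 arrays. It was 4.04 for miR-335-5p and 6.90 for miR-379. The difference of the 6-week effect from the 8-week effect was 2.96 for miR-335-5p and 3.48 for miR-379. Both miRNAs had an olive oil signal at the floor of 0.01 at 6 weeks, so these sizes depend on the floor.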

How the results depend on the processing

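The counts are given as called higher and lower, both CCL4 arrays above and below, at least 1.5-fold higher and lower, and effects that differed from 4 and from 8 weeks. The main counts were 8 and 4, 27 and 96, 17 and 29, and 7 and 2. Without scaling, and in the processed table, they were 9 and 0, 59 and 2, 28 and 0, with 5 and 2 differing between weeks without scaling and 4 and 0 in the processed table. With the 75th percentile over miRNAs detected on all 8 arrays they were 17 and 1, 58 and 38, 23 and 1, and 1 and 0. With the median over the same miRNAs the calls were 14 and 61 and the week counts 2 and 0. Quantile normalization gave 10 and 3 calls, 53 below, 3 at least 1.5-fold lower, and week counts of 14 and 0. A floor at the lowest detected signal gave 5 and 4 calls, 9 at least 1.5-fold higher, and week counts of 8 and 0. Normexp gave 0 and 0 limma calls (5 and 0 with p under 0.05 before adjustment), 57 above and 8 below, 3 and 0 past 1.5-fold, and week counts of 1 and 0. Testing the miRNAs detected on at least 1 of the 3 arrays gave 13 and 5 calls and week counts of 12 and 5, testing those detected on all 3 gave 4 and 11 calls and week counts of 4 and 0, and testing all 567 gave 1 and 7 calls and week counts of 27 and 13. The 3 arrays of 6 weeks alone gave 3 and 0 calls. An intensity trend gave 7 lower calls and 1 effect that differed from 8 weeks. The methods' t-test called 3 and 2 unadjusted and 0 and 0 after Benjamini-Hochberg. A 2-fold threshold left 10 higher and 1 lower. The floor before the division gave the same counts as the main setting, and arithmetic means of the pair gave 17 and 26 past 1.5-fold.

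Leaving out each array of a CCL4 pair in turn gave between 3 and 18 higher calls, between 0 and 73 lower calls, between 27 and 41 above, between 96 and 110 below, between 13 and 23 at least 1.5-fold higher and between 11 and 55 at least 1.5-fold lower, and week counts from 5 to 19 and from 2 to 3. Without CCL4 replicate 1 of 6 weeks the calls were 18 and 11, without replicate 2 they were 11 and 73, and without replicate 1 or replicate 2 of the CCL4 arrays of 8 weeks they were 3 and 0. A lone array was then assumed to vary like the remaining pair. The replicate numbers of 6 and 8 weeks share only a number, since the deviations of same-numbered arrays had r = 0.05. With the replicate block the calls were 6 and 6, and 11 effects differed from 4 weeks and 2 from 8 weeks. A slide block was not run because all arrays lay on 1 slide. CCL4 replicate 1 and the olive oil array of 6 weeks lay in slide row 1, and CCL4 replicate 2 in row 2. An effect of the row cannot be told apart from the replicate and was not tested.

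Chosen after seeing the data, centring on the median of ratios gave 16 and 1 calls, 54 above and 55 below, 24 and 1 past 1.5-fold, and week counts of 3 and 1. No scaling with arithmetic means gave 30 and 0 past 1.5-fold. No scaling without CCL4 replicate 1 or replicate 2 of 6 weeks gave between 7 and 18 higher and between 0 and 1 lower calls, between 61 and 135 above, between 4 and 78 below, between 26 and 48 at least 1.5-fold higher and between 0 and 4 lower, and week counts from 7 to 10 and 2.

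Of 498 values over 22 named miRNAs, 324 kept direction and side of the threshold, 112 lost the call, 48 gained it and 14 reversed. miR-200a turned to -0.017 with the replicate block and -0.13 without CCL4 replicate 2. With the floor at the lowest detected signal miR-379 turned to -0.15 and miR-335-5p to -0.70. Without scaling and without CCL4 replicate 1, miR-455 turned to 0.19, miR-29c to 0.015 and miR-146a to 0.23. miR-574-5p, -0.22 in the main setting, turned to 0.36 without scaling and in the processed table, 0.25 with the percentile over detected miRNAs, 0.053 with normexp, 0.19 with centred values, and 0.40 and 0.32 without scaling and without CCL4 replicate 1 and 2. The cause was not tested. Signals near the lowest detected value limit what can be said of miR-214, miR-96, miR-31*, miR-99b and the chromosome 12 miRNAs.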
